A study of Mus musculus with 2 samples.

Results

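Cells with a retinal pigment epithelium (RPE) identity were picked out of the embryonic mouse eye cup by their pigment cell transcripts, and they numbered 183 of 5519 barcodes in the control library and 110 of 6374 in the mutant library. A barcode was taken as RPE-like when it held at least 1 UMI (a unique molecular identifier, which marks 1 captured transcript) of at least 3 of the 8 genes *Mlana*, *Tyr*, *Slc45a2*, *Gpr143*, *Oca2*, *Trpm1*, *Gpnmb* and *Rlbp1*, and UMIs of fewer than 2 of the neural crest genes *Sox10*, *Pax3*, *Kit*, *Erbb3* and *Cdh19*. Only barcodes with 200 or more genes and at most 15% mitochondrial UMIs were considered, which left 11893 of 12793, of which 293 were RPE-like. All other passing barcodes served as the comparison.

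The eye cups came from e13.5 mouse embryos, with cornea, lens and optic nerve removed. The control was Myrf fl/fl, in which both alleles of the transcription factor gene *Myrf* are floxed but no cre is present. The mutant was Rx>cre Myrf fl/fl, the same floxed alleles with a cre transgene under *Rx* regulatory sequence, which acts in the early eye field and so in the forerunners of both the RPE and the neural retina. Each genotype was 1 library of 3 pooled samples, made with a 10x Genomics 3′ kit, so there is no replicate for either genotype and no test between them. A level below is given in CPM, UMIs per 1000000 UMIs of the same cells. Intervals are 95% intervals that cover counting error only, and a log2 ratio is the mutant over the control level with 1 UMI added to each sum.

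The RPE lines the back of the eye as a pigmented sheet that faces the photoreceptors. It arises from the outer wall of the optic cup, where the transcription factors MITF and OTX2 switch on the melanin genes, and it later recycles visual chromophore, moves ions, lactate and water, engulfs shed photoreceptor tips and secretes growth factors and matrix toward the retina and the sclera. MYRF is a membrane-bound transcription factor whose DNA-binding part is released by self-cleavage. TMEM98 binds it and blocks that cleavage.

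The promoters of some pigment genes hold the letters CATGTG, an E-box of the kind that MITF reads, close to the start site. They are printed for 3 such genes, *Tyr* (chr7:87493463-87493762, minus strand), *Tyrp1* (chr4:80833963-80834262, plus strand) and *Tspan10* (chr11:120442381-120442680, plus strand), of which *Tyr* is a gene of the rule and the other two were among the genes with the strongest bias to RPE-like cells. *Slc16a8* (chr15:79254699-79254998, minus strand) and *Atp1b1* (chr1:164458306-164458605, minus strand) are printed because they were among the genes lower in mutant RPE-like cells and hold GTGCCAG, the reverse complement of CTGGCAC, which is one spelling of the motif known for MYRF. Each run is the RefSeq window on GRCm38.p6 from 250 bases before the start site to 50 after it, read 5′ to 3′ on the strand of the gene, with the motif in capitals.
*Tyr*: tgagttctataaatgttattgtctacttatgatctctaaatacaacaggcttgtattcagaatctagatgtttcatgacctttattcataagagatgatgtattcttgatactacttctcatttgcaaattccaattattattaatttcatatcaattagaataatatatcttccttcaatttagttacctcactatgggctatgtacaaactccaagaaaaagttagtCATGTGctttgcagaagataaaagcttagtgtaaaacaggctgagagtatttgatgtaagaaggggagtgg
*Tyrp1*: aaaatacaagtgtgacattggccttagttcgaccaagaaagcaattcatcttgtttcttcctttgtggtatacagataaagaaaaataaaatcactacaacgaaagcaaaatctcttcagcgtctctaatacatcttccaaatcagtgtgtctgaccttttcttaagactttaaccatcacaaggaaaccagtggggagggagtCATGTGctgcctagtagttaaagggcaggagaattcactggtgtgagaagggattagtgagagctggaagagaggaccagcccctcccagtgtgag
*Tspan10*: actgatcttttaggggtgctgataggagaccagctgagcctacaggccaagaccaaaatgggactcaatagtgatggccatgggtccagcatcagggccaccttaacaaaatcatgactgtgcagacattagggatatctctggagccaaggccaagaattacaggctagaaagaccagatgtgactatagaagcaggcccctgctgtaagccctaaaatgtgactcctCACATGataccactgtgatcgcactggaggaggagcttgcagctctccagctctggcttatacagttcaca
*Slc16a8*: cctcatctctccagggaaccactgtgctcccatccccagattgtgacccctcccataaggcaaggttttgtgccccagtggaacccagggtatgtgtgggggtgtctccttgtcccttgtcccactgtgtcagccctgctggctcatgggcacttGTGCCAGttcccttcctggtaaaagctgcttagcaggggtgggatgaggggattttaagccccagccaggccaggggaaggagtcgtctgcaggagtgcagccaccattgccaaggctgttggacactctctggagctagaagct
*Atp1b1*: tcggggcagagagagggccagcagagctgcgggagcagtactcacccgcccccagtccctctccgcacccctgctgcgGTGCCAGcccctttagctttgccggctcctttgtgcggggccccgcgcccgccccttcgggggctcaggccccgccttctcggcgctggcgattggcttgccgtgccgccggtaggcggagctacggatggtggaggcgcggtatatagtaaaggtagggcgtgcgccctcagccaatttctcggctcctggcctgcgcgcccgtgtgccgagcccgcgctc
The E-box begins 21 bases before the start of *Tyr*, 46 before that of *Tyrp1* and, as its reverse complement CACATG, 21 before that of *Tspan10*. The MYRF-type letters begin 95 bases before the start of *Slc16a8* and 172 before that of *Atp1b1*.

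Counted on both strands, CATGTG stood in 14.2% of the 32851 promoter windows searched. The shares that follow are by gene, a gene counting once if any of its windows matched, and so are not of the same unit. CATGTG stood in 9.56% of the 5594 compared genes with a window. Of the 334 genes with a bias to RPE-like cells, 245 had a window, and 44 of these (18.0%) held it. CTGGCAC or CTGGTAC stood in 7.10% of the windows searched and, by gene, in 7.29% of the compared genes with a window. Of the 134 genes at least 2-fold lower in the mutant cells, 97 had a window, and 11 of these (11.3%) held it. The E-box and the MYRF-type letters were searched separately and did not overlap in the windows printed. A match is only a match of letters, and it was not tested whether either share exceeds what other genes would give.

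The 8 genes of the rule had values that follow in part from their use in it. *Trpm1*, a cation channel of pigment cells and bipolar neurons, was the highest, with 1230 CPM (1183 to 1278) in the 183 control cells and 1258 CPM (1203 to 1316) in the 110 mutant cells. *Mlana*, a melanosome protein, stood at 571 CPM (539 to 604) and 504 CPM (469 to 540). *Tyr*, the rate-limiting enzyme of melanin synthesis, stood at 482 and 375 CPM. The lower members were *Rlbp1* (457 and 271 CPM), which encodes the retinaldehyde-binding protein of the visual cycle, and *Gpnmb* (402 and 222 CPM), a melanosome and lysosome glycoprotein. The melanosome transporters *Oca2* (136 and 114 CPM) and *Slc45a2* (97.6 and 70.4 CPM) and the melanosome receptor *Gpr143* (61.7 and 39.8 CPM) were the least abundant. Between the libraries the log2 ratios of the 8 genes ran from -0.85 for *Gpnmb* to 0.03 for *Trpm1*.

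The exclusion genes were kept low by the rule itself. *Sox10*, the neural crest factor that defines melanoblasts, had 12 UMIs in 11 of the control RPE-like cells (5.61 CPM, against 7.81 CPM in the other barcodes) and none in the 110 mutant cells, which allows a share of up to 2.73%. In the 34 control barcodes that carried pigment markers together with 2 or more of the exclusion genes, called melanoblast-like here, *Sox10* stood at 321 CPM. *Kit*, a receptor of migrating melanoblasts, was found in 4.92% and 6.36% of RPE-like cells, against 4.72% and 4.05% of the other barcodes, and *Erbb3*, a neuregulin receptor, had 2 UMIs over the control cells and none over the mutant ones. *Pax3* and *Cdh19* had no UMI in RPE-like cells of either library.

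**Figure D1:**
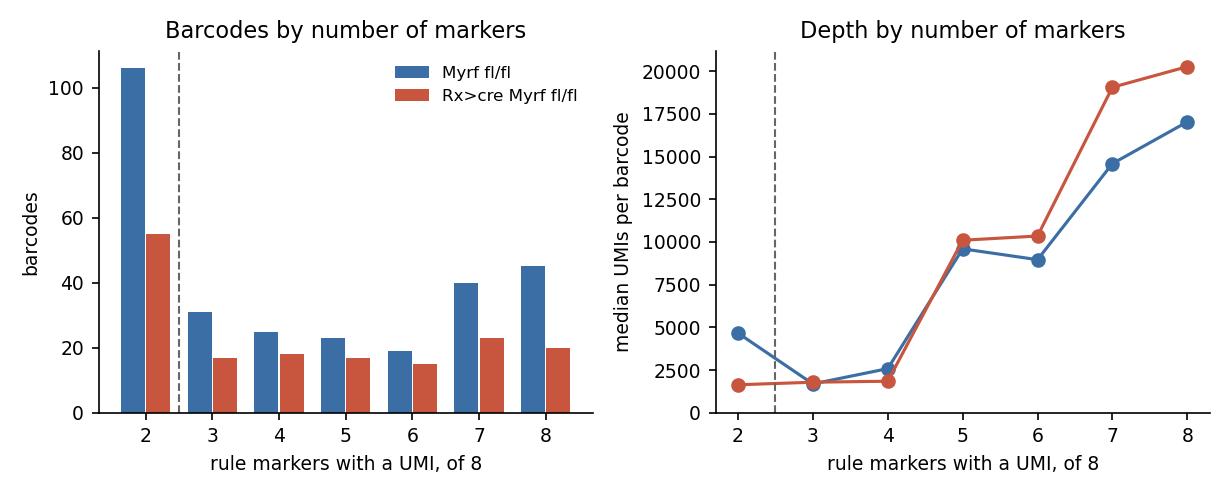
Number of barcodes (vertical axis) by the number of the 8 rule markers they held (horizontal axis), for the control and the mutant library, with the threshold of 3 marked. In the control library 106 barcodes held 2 markers, 31 held 3 and 45 held all 8, and in the mutant library 55, 17 and 20. The right panel gives the median UMIs per barcode, which was 1693 at 3 markers and 17028 at 8 in the control.

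Just outside the threshold, 106 control and 55 mutant barcodes held exactly 2 markers, against 31 and 17 that held exactly 3. The barcodes with 3 markers were shallow, with medians of 1693 (control) and 1792 UMIs (mutant), while those with all 8 had medians of 17028 and 20258.5 UMIs. *Pmel*, which builds the fibrils of the melanosome and was not used by the rule, was found in 83.9% of control barcodes with 3 markers and in 55.7% of those with 2, and in the mutant in 82.4% and 52.7%. Its level was 1284 CPM at 3 markers and 354 CPM at 2 in the control, and 1678 and 692 CPM in the mutant. *Ttr*, which encodes transthyretin, a carrier of thyroxine, was found in 29.0% of control barcodes with 3 markers and in 5.88% of the mutant ones.

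Of the 6 genes listed as marks of this identity, *Pmel* and *Ttr* were not part of the rule. *Pmel* was present in 96.2% (92.3 to 98.4) of control and 97.3% (92.2 to 99.4) of mutant RPE-like cells, at median depths of 12671 and 14605.5 UMIs. In red blood cell-like barcodes, which should lack it, the shares were 10.3% and 6.88% at median depths of 22891.5 and 22922.5 UMIs. Thinning to 3000 UMIs a cell dropped the shallower ones, 43 in the control and 29 in the mutant, after which *Pmel* was found in 95.0% and 95.1% of RPE-like cells and in 2.19% and 1.45% of the red blood cell-like barcodes. Nearly every cell thus held *Pmel*, whereas *Ttr* was present in 52.5% (45.0 to 59.9) of the control and 30.9% (22.4 to 40.4) of the mutant cells.

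Of passing barcodes, RPE-like cells made up 3.32% (2.86 to 3.82) in the control library and 1.73% (1.42 to 2.08) in the mutant library, a ratio of 0.52 (0.407 to 0.663), and the 2 intervals did not overlap. The ratio came close to 1 under a mitochondrial limit of 5%, with 58 cells in each library (1.52% and 1.33%), and under an upper limit of 2000 UMIs, with 29 and 23 cells. It was 0.414 when the rule was applied after thinning, and 0.183 without cells that held 3 or more markers of another class. RPE-like cells had more mitochondrial UMIs than the other barcodes, with medians of 5.48% and 4.88% against 4.13% and 4.18%. Among the barcodes dropped for over 15% mitochondrial UMIs, 14 of 515 in the control (2.72%) and 3 of 371 in the mutant (0.809%) met the marker rule. The part of dissociation, capture and the choice of pooled eyes in the share cannot be told apart from genotype with 1 library each.

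The libraries held 63483835 and 75228861 UMIs in all, of which the RPE-like cells held 2140599 and 1533154. The 2 libraries shared 72 barcode sequences, none of them of RPE-like cells. Scrublet, a doublet caller, marked 51 control (0.924%) and 74 mutant (1.16%) barcodes, among them 3 and 0 RPE-like cells. By *Xist* and Y-linked transcripts both sexes were present in each pool, with 37 female and 64 male RPE-like cells in the control and 17 and 44 in the mutant, the rest being undecided. Markers of other cell types were present as well. Higher than in the other barcodes were the sums of the 10 genes of surface ectoderm and lens, at 444 and 497 CPM against 50.1 and 34.4 CPM, with 2 and 5 of them at 0, and the 6 ciliary margin genes, at 302 and 269 CPM against 158 and 128 CPM, with 0 and 1 at 0. Most of the first sum was *Cryab* alone, at 414 and 482 CPM. Of the ciliary margin genes only 1 was at least 4-fold higher than in the other barcodes of both libraries. The list of 9 neural progenitor genes summed to 758 and 501 CPM, against 2052 and 1783 CPM in the other barcodes, with 1 gene of the list at 0, and 59 and 23 RPE-like cells held 3 or more of them. The 10 neuronal genes, none at 0 in either library, summed to 640 and 505 CPM, of which a single cell held 43.5% in the control and 49.9% in the mutant. The 10 mesenchyme genes, none at 0, summed to 240 and 207 CPM, and the 8 endothelial genes to 9.81 and 5.87 CPM, with 2 and 3 of them at 0. The 8 macrophage genes summed to 25.7 CPM in the control, with 2 at 0, and to 421 CPM in the mutant, where 2 cells held 95.0% of these UMIs. Haemoglobin genes were at 612 CPM in control and 1143 CPM in mutant RPE-like cells, against 62719 and 119574 CPM in the others.

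RPE-like cells were set apart from the rest of the eye cup by a large group of genes beyond the rule. Of 7032 genes with at least 50 UMIs over the RPE-like cells of both libraries, 334 (4.75%) were at least 4-fold higher in them than in the other barcodes of both libraries. The count was 400 in the control alone and 371 in the mutant alone, so the 334 shared genes were 83.5% of the first and 90.0% of the second. Since the cells were selected on correlated pigment genes, these ratios describe the selection and carry no test.

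Among genes with at least 500 UMIs in RPE-like cells that the rule did not use, *Ttr* had the largest bias. It stood at 2228 CPM in control RPE-like cells against 8.24 CPM in the others (log2 ratio 8.08), and at 730 against 0.971 CPM in the mutant (9.54). *Tyrp1*, which encodes a melanosomal oxidase, followed with log2 ratios of 7.96 and 8.75. *Tspan10*, a tetraspanin of pigment cells, had 7.01 and 7.78. The amino acid transporter gene *Slc38a8* had 6.49 and 7.01, the short collagen gene *Col8a1* 6.48 in the mutant and more in the control, and *Krt18*, a keratin of simple epithelia, 5.94 and 5.68.

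Genes that other cell types use were among the leading ones too. *Pcp4*, a calmodulin-binding protein known from neurons, had log2 ratios of 7.35 and 7.55. *Sostdc1*, a secreted BMP and WNT antagonist, had 5.33 and 5.97, and *Cryab*, a small heat shock protein abundant in the lens, 5.23 and 6.04. *Ptgds*, the prostaglandin D synthase, had 5.54 and 5.55, and *Clu*, the secreted chaperone clusterin, 5.26 and 4.94. The other genes of the leading 20 were the unnamed *Gm33489* (7.46 and 9.17), *Pmel* (6.78 and 7.22), *Mgll* (6.47 and 6.54), *Bace2* (5.76 and 5.61), *Rdh5* (5.66 and 5.19), *Bdh2* (4.84 and 4.68), *Bhlhe41* (4.64 and 4.76), *S100a1* (5.25 and 4.62) and *Uap1l1* (4.60 and 4.76).

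Part of this group is shared with melanoblasts and part is not. In control melanoblast-like barcodes *Pmel* stood at 2222 CPM and *Dct*, the dopachrome tautomerase of melanin synthesis, at 4818 CPM, against 5961 and 1916 CPM in control RPE-like cells. *Mitf* was at 244 CPM in the melanoblast-like and 164 CPM in the RPE-like cells. *Otx2* was at 17.1 and 327 CPM, *Gsx2* at 3.66 and 104 CPM, and *Slc38a8* had no UMI in the first and stood at 229 CPM in the second. Those melanoblast-like values rest on 34 barcodes and 820032 UMIs.

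**Figure D2:**
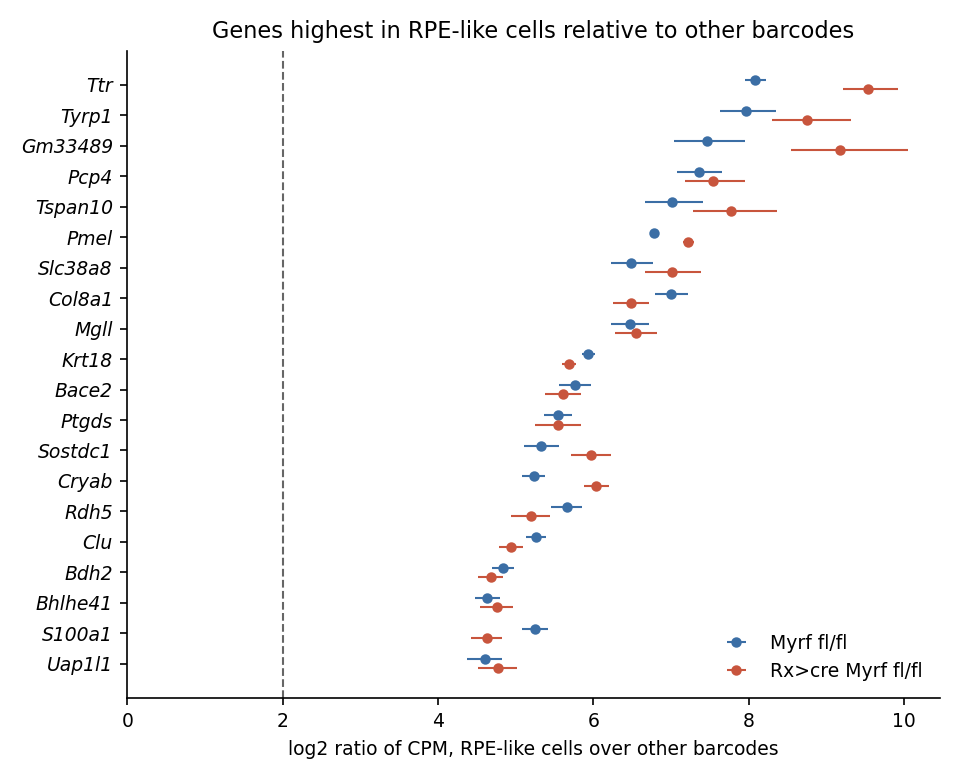
Log2 ratio of CPM in RPE-like cells over the other barcodes (horizontal axis) for the 20 leading genes (vertical axis) in the control and the mutant library, with 95% counting intervals and a dashed line at 4-fold. *Ttr* leads at 8.08 and 9.54, and each of the 20 lies beyond the line in both libraries.

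Between the libraries, 134 of the 7032 genes (1.91%) were at least 2-fold lower and 79 (1.12%) at least 2-fold higher in mutant RPE-like cells. The intervals of these genes all excluded 0, but the UMI minimum and the 2-fold limit fix that in advance, so it adds no evidence. They cover counting error only, not the spread between cells. The median over all 7032 genes was -0.036, with 54.6% of them lower and 45.4% higher in any degree, and the counts within the lists below are to be read against these shares. Of the 334 genes with the bias to RPE-like cells, 36 (10.8%) were at least 2-fold lower and 3 (0.898%) at least 2-fold higher, with 262 lower and 72 higher in any degree and a median of -0.39. The other barcodes had a median of -0.12 over the 7032 genes, and 35 of the genes were past 2-fold there.

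*Myrf* itself (chromosome 19 from 10208272 to 10240748, minus strand, GRCm38) had 148 UMIs in 87 of 183 control cells and 29 UMIs in 22 of 110 mutant cells, or 69.1 CPM (58.4 to 81.2) and 18.9 CPM (12.7 to 27.2). The log2 ratio was -1.83 (-2.50 to -1.29), against -0.58 in the other barcodes. Those 87 cells were 47.5% (40.1 to 55.0) of the control ones, the 22 cells at most 28.7% of the mutant ones by their interval, and after thinning 17.9% and 7.41% held a *Myrf* UMI, against 0.490% of unthinned control red blood cell-like barcodes and none of the 480 mutant ones (up to 0.625%). Reads of a 3′ kit come from the end of the transcript, which the deleted exons need not include, so the remaining UMIs do not show intact transcript. *Tmem98* (chromosome 11 from 80810175 to 80822033) had a log2 ratio of -1.07, from 275 and 93 UMIs.

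**Figure D3:**
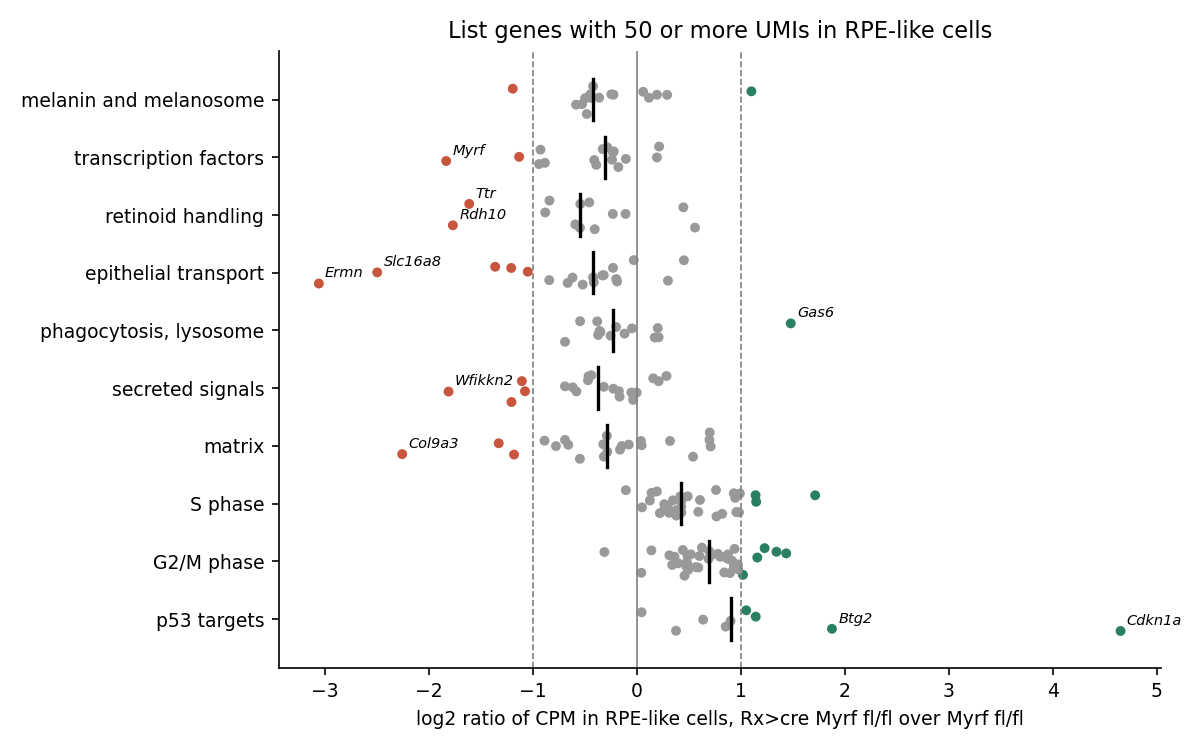
Log2 ratio of mutant over control RPE-like cells (horizontal axis) for the compared genes of each gene list (vertical axis), 1 point per gene, with a black bar at the list's median. Genes past 2-fold are coloured, and the medians run from -0.54 for retinoid handling to 0.90 for p53 targets.

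Genes of retinoid handling had the lowest median of the RPE function lists, at -0.54 over the 13 of 17 with enough UMIs, against -0.17 in the other barcodes. In the mutant, 11 were lower and 2 higher, of which 2 were at least 2-fold lower and none at least 2-fold higher. *Rdh10* (chromosome 1 from 16105774 to 16133734), which oxidises retinol on the way to retinoic acid, had 341 UMIs in 87 control cells and 71 UMIs in 34 mutant cells, with a log2 ratio of -1.77 (-2.17 to -1.41). *Ttr* had 4770 UMIs in 96 cells and 1119 in 34, at -1.61 (-1.71 to -1.52), and the other barcodes had -3.07 for it.

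The rest of the retinoid list differed less. *Rdh5*, the retinol dehydrogenase of the visual cycle, had 583 and 233 UMIs (-0.84), and *Stra6*, the receptor that takes up retinol, 583 and 277 (-0.59). *Aldh1a3*, which makes retinoic acid, was higher in the mutant, with 211 and 223 UMIs (0.56 (0.28 to 0.84)). Genes of the mature visual cycle were not detected at this depth. *Rpe65*, *Lrat* and *Rgr* had no UMI in RPE-like cells of the control or the mutant, where a count of 0 allows up to 1.40 CPM in the control and 1.96 CPM in the mutant.

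Epithelial transport and polarity genes held the lowest ratios of the RPE function lists. Of the 19 compared of 30, 17 were lower and 2 higher in the mutant, 5 of them at least 2-fold lower, with a median of -0.42 against -0.26 in the other barcodes. *Slc16a8* (chromosome 15 from 79251014 to 79254761), the basolateral lactate transporter MCT3 of the RPE, had 172 UMIs in 61 control cells and 21 UMIs in 11 mutant cells, a log2 ratio of -2.49 (-3.28 to -1.89). *Ermn* (chromosome 2 from 58045113 to 58052864), an actin-binding protein best known from oligodendrocytes, had 57 UMIs in 33 control cells and 4 UMIs in 4 mutant cells (-3.05 (-5.28 to -1.92)).

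*Ermn* had no UMI in any of the 5336 other control or 6264 other mutant barcodes, which allows shares of up to 0.0562% and 0.0479%. After thinning, 7.14% of control RPE-like cells and none of 81 mutant cells (up to 3.70%) held one. *Atp1b1*, the beta subunit of the sodium pump, had 160 and 49 UMIs (-1.21), *Cdh3*, the cadherin of the RPE, 123 and 42 (-1.05), and *Kcnj13*, its apical potassium channel, 42 and 11 (-1.36). The abundant members differed little, among them *Bsg*, the partner of the lactate transporters (3447 and 1965 UMIs, -0.33), the glucose transporter *Slc2a1* (834 and 524, -0.19) and the carbonic anhydrase *Car14* (1135 and 694, -0.23).

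Melanin and melanosome genes outside the rule had a median equal to that of the transport genes, but fewer members past 2-fold. Of 17 compared of 25, 12 were lower and 5 higher, 1 in each direction past 2-fold, with a median of -0.42 against -0.20 in the other barcodes. *Pmel* had 12761 and 7119 UMIs, or 5961 and 4643 CPM, a log2 ratio of -0.36 (-0.40 to -0.32). *Tyrp1* had 641 and 343 (-0.42), *Dct* 4101 and 2106 (-0.48) and *Slc24a5*, the melanosomal cation exchanger, 921 and 458 (-0.52). *Myrip*, which links melanosomes to motor proteins, had 50 and 15 UMIs (-1.19), while *Slc7a11*, the cystine transporter used in red melanin synthesis, had 38 and 59 (1.10 (0.50 to 1.74)). The sign turned for *Tyrp1* at a mitochondrial limit of 5% (0.39) and for *Pmel* in cells of at most 2000 UMIs (0.16).

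Transcription factors of RPE fate and of the optic cup were lower in 14 and higher in 2 of the 16 compared of 23, with a median of -0.30 that was close to that in the other barcodes (-0.29). Beside *Myrf*, only *Gsx2* was past 2-fold. This homeobox gene, better known from the ventral forebrain, had 222 UMIs in 95 control cells and 72 in 42 mutant cells (-1.13 (-1.55 to -0.75)), and was 8.16 and 8.44 log2 units higher in RPE-like cells than in the others. *Mitf*, the master regulator of pigment cells, had 351 and 213 UMIs, with an interval that included 0 (-0.24 (-0.49 to 0.01)). *Otx2* had 700 and 412 (-0.28), *Pax6* 480 and 293 (-0.23), *Sox9*, which acts on visual cycle genes, 264 and 102 (-0.88) and *Lhx2* 427 and 230 (-0.41). *Rax*, the eye field gene whose sequence drives the transgene, had 98 and 36 UMIs (-0.94), and 1 cell held 64% of the mutant ones. At a mitochondrial limit of 5%, *Mitf* stood at 0.22 and *Otx2* at 0.26.

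Matrix genes split within one collagen. *Col9a3* (chromosome 2 from 180597790 to 180622189) had 232 UMIs in 78 control cells and 34 in 23 mutant cells (-2.25 (-2.85 to -1.77)). Its partner chains in type IX collagen were higher in the mutant, with 168 and 196 UMIs for *Col9a1* (0.70 (0.40 to 1.01)) and 48 and 56 for *Col9a2* (0.70 (0.12 to 1.29)). *Vit*, the matrix protein vitrin, had 363 and 103 UMIs (-1.33), *Col8a1* 1022 and 427 (-0.78 (-0.94 to -0.61)), *Crim1*, a membrane antagonist of BMPs, 78 and 24 (-1.18) and *Sparc* 2660 and 1725 (-0.14). Of the 22 compared of 27, 15 were lower and 7 higher, with a median of -0.28 against -0.17 in the others.

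Secreted signals gave 16 lower and 4 higher of the 20 compared of 26, 4 of them at least 2-fold lower, with a median of -0.38 against -0.11 in the others. *Wfikkn2*, which binds TGFβ family ligands, had 43 and 8 UMIs (-1.81), *Bmp2* 44 and 13 (-1.20), *Sema3b*, a guidance cue, 53 and 17 (-1.10) and the WNT modulator *Dkk3* 46 and 15 (-1.07). *Igfbp5*, which binds insulin-like growth factors, was the abundant member with the largest difference (3537 and 1571 UMIs, -0.69 (-0.78 to -0.60)), where the other barcodes had 0.13. *Mdk*, the growth factor midkine, stood at -0.32 (4659 and 2680 UMIs) and *Cst3*, the secreted protease inhibitor cystatin C, at 0.16 (15910 and 12726 UMIs). Of the 14 compared phagocytosis and lysosome genes of 18, 10 were lower and 4 higher (median -0.22, against -0.04 in the others), and *Gas6*, the bridging ligand of the phagocytic receptor MERTK, was the only one past 2-fold, with 45 and 91 UMIs (1.48 (0.97 to 2.05)).

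The RPE-like cells differed widely among themselves in *Ttr*. Among the 132 control and 74 mutant cells with at least 5000 UMIs, 51 control cells (38.6%, 30.3 to 47.5) and 43 mutant cells (58.1%, 46.1 to 69.5) had no *Ttr* UMI. At the other end, 53 control cells (40.2%, 31.7 to 49.0) and 14 mutant cells (18.9%, 10.7 to 29.7) had 1000 CPM or more. The lowest value was 0 in both libraries, the medians were 436 and 0 CPM and the highest 26933 and 25545 CPM. The highest mutant cell held 23.1% of the 1119 mutant *Ttr* UMIs, and the next had 12270 CPM. The upper end of the mutant range thus rests on 1 cell. The libraries differed in how many cells stood at each end, though the intervals for cells without *Ttr* overlapped.

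Over the 132 control cells, the genes whose log level followed that of *Ttr* most closely were *Col8a1* (Pearson r = 0.78), *Ezr*, which encodes the microvillus linker ezrin (0.75), *Cst3* (0.75), *Col9a3* (0.74), *Vit* (0.73), *Slc16a8* (0.72), *Arl6ip1* (0.71), *Rdh10* (0.69), *Tril* (0.68), *Rlbp1* (0.66), *Gpc3* (0.64) and *Ctsd* (0.63). Over the 74 mutant cells the same genes had r from 0.12 for *Slc16a8* to 0.54 for *Tril*. They were picked for their high r in the control, a choice that by itself favours a lower r in the mutant. In the opposite direction stood *Ptma* (-0.60), *Cdk4* (-0.58), *Pax6* (-0.58) and *Pcp4* (-0.57) in the control. These values describe cells of 1 library each, which share its depth range, and carry no test.

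Control cells with 1000 CPM or more of *Ttr* had less *Trpm1*, *Mlana* and *Pax6* than those without *Ttr*. *Trpm1* stood at 642 against 1824 CPM, *Mlana* at 314 against 765 CPM and *Pax6* at 67.8 against 398 CPM, while *Pmel* (6858 against 5342 CPM) and *Tyr* (508 against 423 CPM) were higher. In the mutant the same contrast gave 642 and 1529 CPM for *Trpm1*, 217 and 636 CPM for *Mlana* and 72.4 and 224 CPM for *Pax6*. For *Cst3* the contrast was wider in the control, at 13589 against 1883 CPM, than in the mutant, at 13190 against 6830 CPM.

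**Figure D4:**
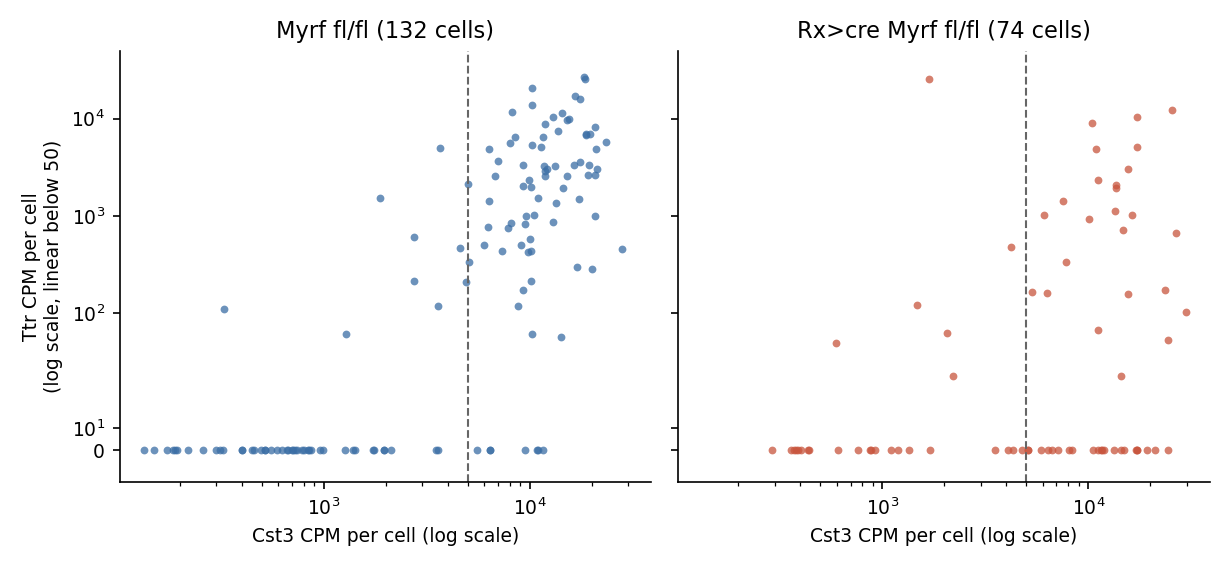
*Ttr* (vertical axis) against *Cst3* (horizontal axis, log scale) in CPM, the former on a log scale that is linear below 50 CPM, 1 point per RPE-like cell with at least 5000 UMIs (132 control and 74 mutant cells). Above 5000 CPM of *Cst3*, 7 of 79 control and 22 of 47 mutant cells had no *Ttr* UMI.

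Cells were also split by *Cst3*, a choice made after its values had been seen. The split does not make the cells of the libraries alike. *Cst3*, picked for its high r with *Ttr* in the control (0.75), had r = 0.34 in the mutant, and its own ratio ran from -1.32 to 0.71 over the alternatives. A level of 5000 CPM or more was found in 79 of 132 control cells (59.8%, 51.0 to 68.3) and in 47 of 74 mutant cells (63.5%, 51.5 to 74.4). Only 5 and 8 cells lay between 4000 and 6000 CPM. The cells with high *Cst3* had median depths of 14650 and 17396 UMIs.

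Within the cells with high *Cst3*, most of the genes chosen for following *Ttr* in the control were lower in the mutant, which describes classes that may hold different cells in each library. *Ttr* was at 3913 CPM in the control and 937 CPM in the mutant (log2 ratio -2.06 (-2.17 to -1.96)), with a median per cell of 2563 and 52.0 CPM. *Slc16a8* had 164 and 16 UMIs (-2.91 (-3.83 to -2.25)), *Col9a3* 217 and 30 (-2.45 (-3.09 to -1.93)), *Rdh10* 312 and 60 (-1.99 (-2.43 to -1.61)) and *Vit* 339 and 92 (-1.50 (-1.86 to -1.18)). *Ermn* had 55 and 4 UMIs (-3.12). Smaller differences were found for *Col8a1* (-1.01), *Rlbp1* (-0.83), *Mlana* (-0.71 (-0.96 to -0.47)) and *Ezr* (-0.53), and *Trpm1* was higher (0.24 (0.10 to 0.38)).

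The cells with low *Cst3*, 53 in the control and 27 in the mutant, held few UMIs of most of these genes in either library. *Rdh10* and *Vit* each had 18 control and 10 mutant UMIs, *Slc16a8* 4 and 5 (the 5 in 1 cell) and *Col9a3* 10 and 3, and all 4 intervals included 0. *Ttr*, with 66 and 272 UMIs (2.68 (2.30 to 3.11)), and *Col8a1* (0.70 (0.15 to 1.26)) had summed ratios above 0 there, against their direction at high *Cst3*. Single cells weighed heavily in both. The 1 mutant cell with 1000 CPM or more of *Ttr* had 25545 CPM at 10100 UMIs and so held most of the 272. Another mutant cell held 20 of the 59 mutant *Col8a1* UMIs. The ratios without these cells were not computed, so they do not describe the class as a whole. In the control, 2 cells had 1000 CPM or more of *Ttr*. *Myrf* was lower in the mutant in both sets, with 101 and 21 UMIs at high *Cst3* (-1.84 (-2.65 to -1.21)) and 38 and 8 at low *Cst3* (-1.46 (-2.90 to -0.47)), as were *Tmem98* (-1.15 and -0.95), *Rlbp1* (-0.83 and -0.81) and *Gsx2* (-1.14 and -1.13). *Trpm1* (1807 and 1738 CPM) and *Mlana* (823 and 899 CPM) had intervals that included 0 at low *Cst3*. The ratio of mutant over control for *Cst3* was -0.46 in female and 0.51 in male cells, whereas that for *Ttr* was below 0 in both (-1.50 and -1.54), and the part of sex in the split was not tested.

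**Figure D5:**
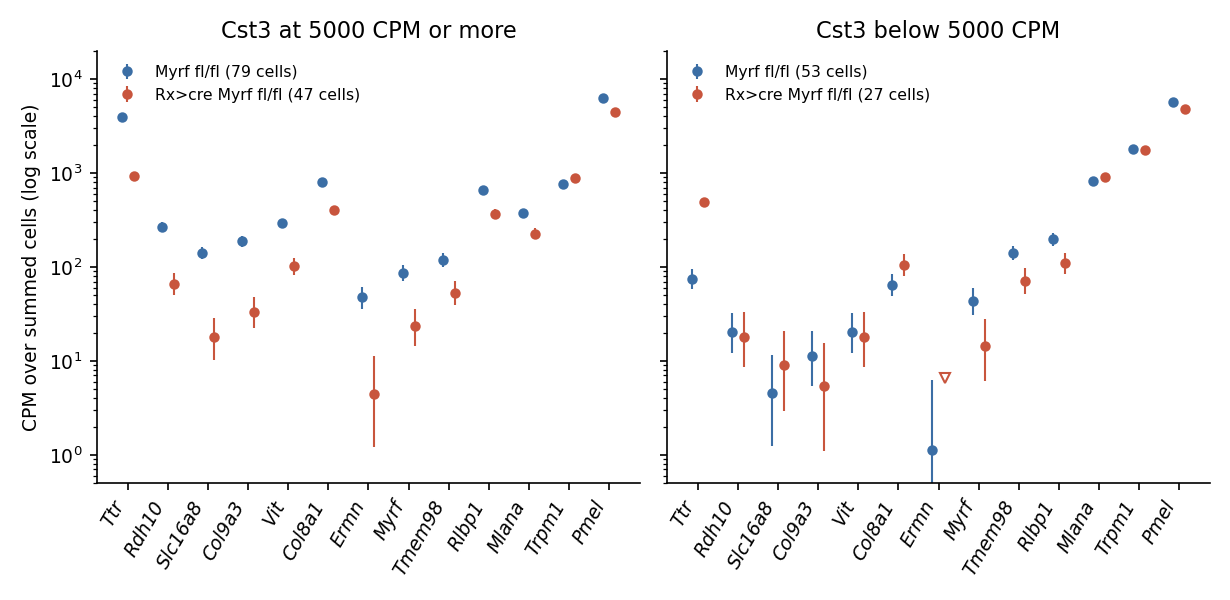
Level in CPM (log axis) of genes in RPE-like cells with high and low *Cst3*, for the control and the mutant library, with 95% counting intervals and open triangles for the upper limit of a gene at 0 UMIs. *Slc16a8* stood at 141 and 17.8 CPM in cells with high *Cst3* and at 4.55 and 8.95 CPM in those with low *Cst3*. The last 2 values rest on 4 UMIs in 4 control cells and on 5 UMIs in 1 mutant cell.

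Cell cycle genes were higher in mutant RPE-like cells. Of the 31 compared S phase genes, 30 were higher and 1 was lower, the median being 0.43 and 3 past 2-fold, and of the 40 compared G2/M genes 39 were higher and 1 was lower, the median being 0.69 and 5 past 2-fold. In the other barcodes the medians were -0.20 and -0.24. *Aurkb*, a kinase of chromosome segregation, stood at 1.44, *Top2a*, the topoisomerase of dividing cells, at 1.23 and *Mki67*, the proliferation marker, at 0.97.

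Summed, the G2/M genes gave 2830 CPM (2759 to 2902) for control and 4461 CPM (4356 to 4568) for mutant cells, both below the 6048 and 5203 CPM of the other barcodes. After thinning to 3000 UMIs, 64.3% (55.8 to 72.2) of 140 control and 67.9% (56.6 to 77.8) of 81 mutant RPE-like cells held 3 or more G2/M genes, and 48.6% (40.0 to 57.2) and 55.6% (44.1 to 66.6) held 3 or more S phase genes. Those intervals overlapped, so that the difference in level was not matched by a separation of the shares at this depth. Without thinning the shares were 94.0% and 94.5% for G2/M and 84.7% and 90.0% for S phase. In cells of at most 20000 UMIs, 165 and 81 in number, the S phase median was -0.11 and the G2/M median 0.63. In cells with high *Cst3*, *Top2a* had 18 and 72 UMIs (2.31 (1.61 to 3.20)).

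Targets of p53 were higher in the mutant in 9 of 9 compared of 22, 4 of them at least 2-fold, with a median of 0.90 against -0.14 in the other barcodes. The minimum of 50 UMIs is summed over both libraries, so a gene can enter through its mutant UMIs, as *Cdkn1a* did. At a minimum of 20 UMIs 11 were higher and 2 lower of 13, and at 1 UMI 19 and 3 of 22. *Cdkn1a* (chromosome 17 from 29090976 to 29100727), the inhibitor of cyclin-dependent kinases known as p21, had 5 UMIs in 4 control cells and 107 UMIs in 13 mutant cells (4.65 (3.63 to 6.55)). Of control cells 2.19% (0.599 to 5.50) and of mutant cells 11.8% (6.45 to 19.4) held a UMI, or 0.714% and 9.88% after thinning, against 3.90% and 3.02% of the other barcodes and 1.96% and 1.46% of red blood cell-like barcodes. Thus the 107 UMIs came from a minority of the mutant cells.

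The 9 mutant cells with 3 or more *Cdkn1a* UMIs held 103 of them, with at most 21 in one cell. In these 9 cells the other 21 p53 targets of the list summed to 2440 CPM (2190 to 2711), or 346 of their 1181 UMIs in mutant RPE-like cells. In RPE-like cells without *Cdkn1a* they summed to 597 CPM (556 to 639) in 97 mutant cells and 518 CPM (488 to 551) in 179 control cells. How far the ratios of single genes below rest on the 9 cells was not tested. The 9 cells held a median of 7 of the 8 pigment markers and at most 3 macrophage UMIs each. Beside *Cdkn1a*, the antiproliferative gene *Btg2* had 18 and 49 UMIs (1.88), *Phlda3*, which restrains AKT, 47 and 75 (1.14), *Ccng1*, a cyclin that acts with MDM2, 36 and 54 (1.05), *Mdm2*, the ligase that degrades p53, 53 and 69 (0.86) and *Bax*, the effector of cell death, 608 and 566 (0.38). *Ei24* was nearly equal (180 and 133 UMIs, 0.05). In male cells *Phlda3* stood at 0.52 (-0.40 to 1.47) and *Ccng1* at 0.25 (-0.77 to 1.26), against 2.21 and 2.41 in female cells, a difference that was not tested. The median of the list was 0.37 over 4 genes in male cells and 0.43 over 4 genes at a mitochondrial limit of 5%. Genes that respond to dissociation were 2 lower and 4 higher of 6 compared of 15, with a median of 0.16, and 1 cell held 44% of the 50 mutant UMIs of the heat shock gene *Hspa1a* (1.91). Their part in the p53 values was not tested.

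Outside these lists, the 10 genes with the lowest ratio among those with at least 100 UMIs were partly the property of single cells. *Gal*, a neuropeptide, had 116 and 5 UMIs (-3.80), but 1 control cell held 73% of the 116, and for the neuronal gene *Rtn1* (82 and 18, -1.65) 1 control cell held 49%. *Ebf1* was found in 15 control and 10 mutant cells, of which 1 in each library held 31% and 27% of its UMIs. The others were spread over more control cells than these, though 1 mutant cell held 43% of the *Vax2os* UMIs. *Fam129a*, a regulator of the stress response, had 96 UMIs in 51 control cells and 18 in 12 mutant cells (-1.87). *Vax2os*, transcribed beside *Vax2*, had 105 and 23 (-1.66), *Camk2n1* 107 and 26 (-1.52), *Gm15222* 79 and 21 (-1.38), *Inpp5k* 118 and 32 (-1.37), *Ebf1* 129 and 37 (-1.29), the cadherin *Fat4* 99 and 29 (-1.26) and *Ptgds* 644 and 194 (-1.24, and -1.25 in the other barcodes).

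The 10 genes with the highest ratio began with *Lyz2*, a macrophage lysozyme (3 and 158 UMIs, 5.79), and *Ifitm3* (5 and 95, 4.48). In the mutant 1 cell held 66% of the *Lyz2* and 87% of the *Ifitm3* UMIs. *Wdfy1* had 11 and 93 UMIs, the latter in 55 of 110 cells (3.45), and was also higher in the other barcodes of the mutant library (2.64). The histone genes *Hist1h2ae* (182 and 412 UMIs, 1.66), *Hist1h2ap* (646 and 1447, 1.64) and *Hist1h1b* (1.26), the replication factor *Pclaf* (1.58), the mitotic kinase *Pbk* (1.48) and the kinetochore gene *Spc25* (1.27) belong to dividing cells, and *Arpc1b*, of the actin-branching complex, stood at 1.50. A single cell held 22% of the control and 34% of the mutant UMIs of *Hist1h1b*, 14% and 24% of those of *Pbk* and 26% and 11% of those of *Pclaf*. For *Arpc1b* 1 mutant cell held 38% of the mutant UMIs, and the ratio was 2.56 in female and 0.28 (-0.51 to 1.06) in male cells. Dropping cells with 3 or more markers of another class, red blood cells included, left 47 and 10 cells. Among these *Hist1h2ap* stood at -0.034, *Pclaf* and *Hist1h1b* both at -1.07, *Camk2n1* at 0.18 and *Ermn* at 0.050. Over all genes past 2-fold, a single control cell held at least 50% of the control UMIs of 5 of the 134 lower genes, and a single mutant cell at least 50% of the mutant UMIs of 18 of the 79 higher genes.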

How the data were processed

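Single cells of 2 pooled e13.5 eye cup libraries, 1 per genotype, were analysed. The deposited files hold whole-number UMI counts per gene and barcode, which the authors made with Cell Ranger 7.1.0 on the mm10 genome, and their processing notes also name Seurat 4.1.1. Raw counts were summed over RPE-like cells in Python 3.11.15 with scipy 1.17.1, and genes with at least 50 UMIs over both libraries were compared. Barcodes were kept with 200 or more genes and at most 15% mitochondrial UMIs, whatever their depth. The median depth of RPE-like cells was 12671 and 14605.5 UMIs. With 1 library per genotype there was no test. Called means past 2-fold between genotypes or past 4-fold against other barcodes. Intervals are exact Poisson, Clopper-Pearson or conditional binomial ones at 95%, and limits for a count of 0 are 3 counts of the total. The calculation was tested on simulated data.

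Named genes were those of the rule, *Myrf* and *Tmem98*, members of the gene lists with at least 50 UMIs, the 10 largest differences in each direction among other genes with at least 100 UMIs and the 20 largest ratios to other barcodes among genes with at least 500 UMIs. Sex-linked and ribosomal protein genes, haemoglobins and mitochondrial genes were not ranked, and some list genes are not reported here. The cells, the lists and the rules were chosen with earlier results of these data known. Scrublet (scanpy 1.11.5, expected rate 5%) called doublets, which were kept. Correlations used log counts per 10000 UMIs. Gene positions are those of GENCODE vM21. Promoters are those of RefSeq. Other marker minimums, depth and mitochondrial limits, doublet and mixed-marker filters, sexes, scalings and count minimums were tried.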

Additional observations from a re-analysis of the deposited data

Results flagged for a closer look

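*Cst3* stood apart by the sex of the embryos. Among RPE-like cells of female embryos its log2 ratio of mutant over control was -0.46, and among those of male embryos it was 0.51, although both pools held both sexes. The difference between the sexes was not tested, since each value compares 1 library with 1 library. The neuronal gene *Rtn1* had opposite signs as well, at 2.12 in female and -3.98 in male cells. It had 2 and 8 UMIs in female and 78 and 3 UMIs in male cells, and 1 control cell held 49% of its control UMIs. That difference between the sexes was not tested either.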

How the results depend on the processing

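No paired analysis was possible because each genotype was 1 library. Of 1100 values of 74 named genes under the alternatives, 833 moved by less than their counting interval, and 50 changed sign. Of the 662 values of the 46 genes past 2-fold, 646 kept their direction, and the other 34 changes of sign were in 16 genes below 2-fold, such as *Lhx2* (1.10 with at most 2000 UMIs), *Rdh5* (0.32, same limit), *Pax6* (0.49 without mixed cells), *Pmel*, *Mitf* and *Cst3*. The ratio of the mutant to the control share (0.52) moved to 0.874 at a mitochondrial limit of 5%, to 0.852 at an upper limit of 2000 UMIs and to 0.183 without cells holding 3 or more markers of another class (47 and 10 cells left). Red blood cells count as such a class, so the cells called mixed here include 109 control and 97 mutant ones with 3 or more of their genes. The counts of genes lower, higher and biased to RPE-like cells (134, 79 and 334) were 59, 50 and 135 at the mitochondrial limit of 5%, 1, 1 and 9 at the 2000 UMI limit and 47, 34 and 103 without those mixed cells. Fewer cells and so fewer genes entered these settings. The lower and higher counts were 82 and 38 at an upper limit of 20000 UMIs, 355 and 183 with mean CPM per cell, 350 and 214 at a minimum of 20 UMIs, 20 and 13 (with 133 biased genes) at 200, and 1177 and 1687 (with 1587) at 1. In female cells 53 were lower and 110 biased, in male cells 52 were higher, and with 2 markers 50 were higher. Among the genes past 2-fold, the signs changed for *Hspa1a* (-0.37 with 5 markers, -0.50 at 20000 UMIs, -0.62 after thinning, -0.19 in male cells), *Slc7a11* (-0.15 at 5% mitochondrial UMIs, -0.34 in female cells), *Rtn1* (1.77 at 20000 UMIs, 2.12 in female cells), *Sema3b* (0.24 in female cells) and *Wfikkn2* (0.090 with mean CPM), and without mixed cells for *Ermn* (0.050), *Camk2n1* (0.18), *Hist1h2ap* (-0.034), *Pclaf* (-1.07) and *Hist1h1b* (-1.07). The cause was not tested. In 2 alternatives chosen after seeing the data, dropping cells with 3 markers of 7 other classes (155 and 94 left) gave 99 lower, 73 higher and 333 biased genes, with *Hspa1a* at -0.37, and cells of at least 5000 UMIs gave 132, 83 and 333. *Myrf* ranged from -2.42 to -1.46, *Ttr* from -3.14 to -0.97, *Rdh10* from -2.31 to -0.95, *Slc16a8* from -3.64 to -0.67, *Col9a3* from -2.72 to -0.60 and *Cdkn1a* from 2.76 to 6.53.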
